A study of Rattus norvegicus with 12 samples.

Results

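The miRNAs described here are rno-miR-138 and rno-miR-128, brain-enriched miRNAs that are known for roles at the synapse and in neuronal excitability. Their members were every row of the count lists that carries either stem, which gave 6 of 753 mature miRNAs: rno-miR-138-5p, rno-miR-138-1-3p, rno-miR-138-2-3p, rno-miR-128-3p, rno-miR-128-1-5p and rno-miR-128-2-5p. Small RNA of 20 to 30 nt was sequenced in hippocampal tissue of 12 male rats, adult Sprague Dawley animals aged P70 to P80. Each library came from 1 rat, is named here by group and animal number, and was prepared from 1 µg of total RNA. The vehicle group held 4 rats (animals 9, 10, 19 and 20). The ethanol group held 8 rats (animals 3, 4, 7, 8, 15, 16, 23 and 24) that had received 4 g/kg ethanol by injection. Tissue was taken 3 h after injection in all of them. The labels call the tissue right hippocampus and the study calls it dorsal hippocampus. The study lists 8 rats per group, so some vehicle rats of that design were not analysed here.

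A miRNA is cut from a hairpin precursor that yields a duplex of both arms. The arm that is loaded into Argonaute is called the guide, and the other, the passenger, is mostly degraded. Bases 2 to 8 of the guide form the seed, which pairs with target mRNAs. In neurons, miR-138-5p is known to restrain dendritic spine growth through the palmitoyl-thioesterase APT1 (Lypla1), and miR-128-3p is known to dampen neuronal excitability. Both stems have a pair of genomic loci that yield the same guide and different passengers, so that only the passenger reports on the locus. Below, miR-138-5p and miR-128-3p are called guides by this textbook usage.

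The mature sequences of the members are shown because the loci can be told apart only by these letters. All 6 matched RefSeq (assembly GRCr8), as did 688 of the 753 names in the lists. Capitals mark the seed.
rno-miR-138-5p: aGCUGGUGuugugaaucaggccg
rno-miR-138-1-3p: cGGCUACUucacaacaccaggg
rno-miR-138-2-3p: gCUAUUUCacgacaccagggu
rno-miR-128-3p: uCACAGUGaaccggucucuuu
rno-miR-128-1-5p: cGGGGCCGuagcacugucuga
rno-miR-128-2-5p: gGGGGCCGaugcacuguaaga
The passengers rno-miR-138-1-3p and rno-miR-138-2-3p matched at 18 of 20 aligned bases, but their first bases were offset by 2, so their seeds differed. The passengers rno-miR-128-1-5p and rno-miR-128-2-5p matched at 16 of 21 bases, started at the same place and shared 1 seed. The guides begin with A in rno-miR-138-5p and U in rno-miR-128-3p, and the 4 passengers begin with C or G. Over 124 stems with sequences for both arms, the more abundant arm began with A or U in 75.0% and the other arm in 55.6%.

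The hairpins show where each arm lies, with both mature arms in capitals.
Mir138-1: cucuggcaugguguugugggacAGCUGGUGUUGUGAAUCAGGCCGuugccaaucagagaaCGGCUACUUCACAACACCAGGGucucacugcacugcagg
Mir138-2: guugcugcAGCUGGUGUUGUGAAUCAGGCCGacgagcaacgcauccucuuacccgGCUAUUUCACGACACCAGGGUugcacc
Mir128-1: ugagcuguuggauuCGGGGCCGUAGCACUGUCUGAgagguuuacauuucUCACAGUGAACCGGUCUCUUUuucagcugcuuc
Mir128-2: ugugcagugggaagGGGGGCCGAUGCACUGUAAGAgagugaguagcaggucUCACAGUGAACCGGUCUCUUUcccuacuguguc
In rno-miR-138 the guide lies on the 5′ side, and in rno-miR-128 it lies on the 3′ side. Between the arms lie 15 bases in Mir138-1, 24 in Mir138-2, 14 in Mir128-1 and 16 in Mir128-2. In GRCr8, Mir138-1 lies on the plus strand of chromosome 8 within lncRNAs and no protein-coding gene. Mir138-2 lies on the minus strand of chromosome 19 within the span of Slc12a3, the kidney sodium-chloride cotransporter. Mir128-1 lies on the plus strand of chromosome 13 within R3hdm1. Mir128-2 lies on the minus strand of chromosome 8 within Arpp21, a neuronal cAMP-regulated phosphoprotein gene, and also within an lncRNA. Whether these spans are introns or exons was not examined, nor was the strand of the genes around the hairpins. Coordinates are not given because the authors' build, rn5, is another one.

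The deposited values are estimated read counts per mature miRNA. Library totals ranged from 2243413 to 4917928 in vehicle and from 1960704 to 3598771 in ethanol libraries. The members together held between 0.618% and 0.995% of each library. Levels are given as CPM, counts scaled to a common library total after TMM correction, which evens out composition between libraries. A count of 3 reads, used as the detection floor, was worth between 0.610 and 1.53 CPM before that scaling, and covers counting error only. No pair of the 12 libraries agreed within sampling noise.

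The miR-128 guide was the most abundant member and the second miR-128 passenger was not detected. rno-miR-128-3p read 7685, 8582, 7074 and 7018 CPM in vehicle animals 9, 10, 19 and 20. In ethanol animals its lowest level was 5925 CPM, in animal 8, its median 7236 and its highest 9165, in animal 23. The ethanol range enclosed the whole vehicle range. Its mean level placed it 27 of the 420 miRNAs that passed a filter on low counts.

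The miR-138 guide stood about an order of magnitude lower. rno-miR-138-5p read 652, 803, 603 and 687 CPM in vehicle animals 9, 10, 19 and 20. In ethanol animals its lowest level was 479 CPM, in animal 3, its median 600 and its highest 711, in animal 24. Animal 10 of the vehicle group was the highest of all 12, and 4 of 8 ethanol animals lay below every vehicle animal. Its mean level placed it 100 of the 420 miRNAs that passed the filter.

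The passengers that were read came next. rno-miR-128-1-5p, the 5′ arm of the first miR-128 locus, read 65.1, 65.1, 53.4 and 65.5 CPM in vehicle animals 9, 10, 19 and 20. In ethanol animals it read from 44.7 CPM in animal 4 to 74.5 in animal 23, with a median of 58.1. Vehicle animals 9, 10 and 20 were nearly equal, animal 19 was lower, and the ethanol animals spread to both sides.

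rno-miR-138-1-3p, the 3′ arm of the first miR-138 locus, read 28.4, 34.5, 27.5 and 31.9 CPM in vehicle animals 9, 10, 19 and 20. In ethanol animals it read from 19.9 CPM in animal 7 to 38.1 in animal 23, with a median of 26.2. In 6 of 8 ethanol animals it lay below every vehicle animal, while animal 23 lay above them all.

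rno-miR-138-2-3p, the 3′ arm of the second miR-138 locus, read 9.25, 10.6, 12.4 and 7.45 CPM in vehicle animals 9, 10, 19 and 20. In ethanol animals it read from 6.02 CPM in animal 3 to 13.5 in animal 23, with a median of 9.51. These levels rest on 13 to 59 reads per library, and the groups overlapped throughout. rno-miR-128-2-5p had 0 reads in all 12 libraries.

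The order of levels was the same in 12 of 12 libraries. It ran from rno-miR-128-3p through rno-miR-138-5p, rno-miR-128-1-5p, rno-miR-138-1-3p and rno-miR-138-2-3p to rno-miR-128-2-5p. Neighbours in this order differed on the log2 CPM scale by 3.58 ± 0.17 (SD, n = 12), 3.38 ± 0.20, 1.07 ± 0.24 and 1.47 ± 0.34, down to rno-miR-138-2-3p. Each difference had a two-sided exact sign-flip p of 0.000488, the smallest that 12 libraries can give. The order was taken from these same libraries, so this p describes how uniform each difference was and is no independent test of the order. In its lowest library, rno-miR-138-2-3p was at least 4.33-fold higher than rno-miR-128-2-5p, taking the latter at the floor of 3 reads per library. Mature miRNAs are of nearly equal length, 21 to 23 bases here, so no length scaling was applied. Ligation bias between sequences was not tested.

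**Figure D1:**
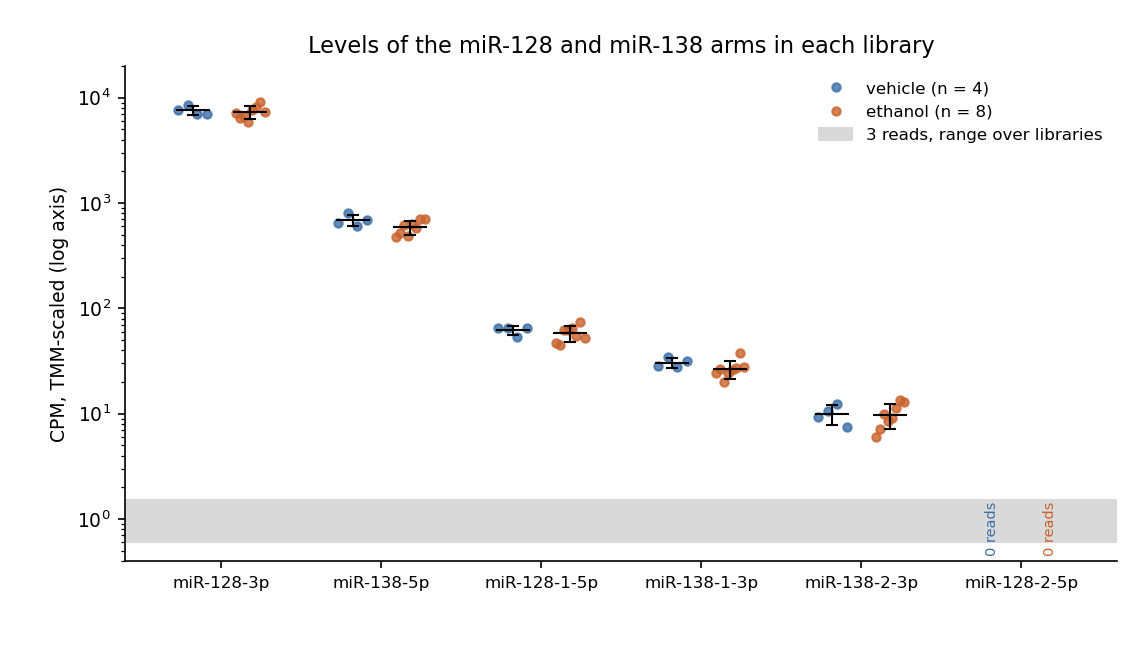
Level of each member in each library, in TMM-scaled CPM on a log axis, for vehicle (blue, n = 4) and ethanol (orange, n = 8). Points are rats, black bars are the mean ± SD, and the grey band is the range of 3 reads over the libraries before TMM scaling. The 5 members that were read keep 1 order in every library, the groups overlap for each, and rno-miR-128-2-5p has 0 reads.

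Neighbours of the guides among all miRNAs put these levels in context. rno-miR-138-5p lay between miR-93-5p at 626 ± 80.2 CPM (SD, n = 12) and miR-25-3p at 600 ± 54.3 CPM. miR-93-5p was the higher in 7 of 12 libraries and miR-25-3p in 4 of 12. These neighbours were picked by mean level in the same libraries, so no p is given for them. rno-miR-128-3p lay below miR-211-5p, a choroid plexus miRNA, at 7543 ± 3046 CPM, which was the higher in 6 of 12 libraries. rno-miR-128-3p exceeded the next miRNA down, miR-434-3p at 6092 ± 548 CPM, in 12 of 12 libraries.

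Both stems were one-sided, rno-miR-128 more than rno-miR-138. rno-miR-138-5p had 17.3, 17.8, 15.1 and 17.5 reads for each passenger read of both loci in vehicle animals 9, 10, 19 and 20. In ethanol animals this ratio ran from 13.6 in animal 23 to 20.9 in animal 7, with a median of 15.5. The ethanol animals lay on both sides of the vehicle range.

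rno-miR-128-3p had 118, 132, 132 and 107 reads for each passenger read in vehicle animals 9, 10, 19 and 20. In ethanol animals the ratio ran from 95.8 in animal 8 to 152 in animal 3, with a median of 131. Here too the ethanol range enclosed the vehicle range.

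Among 138 stems with both arms tested, ordered by how far the more abundant arm exceeded the other, rno-miR-128 was 23 and rno-miR-138 was 70. rno-miR-128 stood between miR-181b, with a 215-fold excess of the 5p arm, and miR-34c, with a 121-fold excess of the 5p arm. rno-miR-138 stood between miR-190a at 16.4-fold toward the 5p arm and miR-542 at 16.3-fold toward the 3p arm. The 5p arm was the more abundant in 73 of these stems and the 3p arm in 65.

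**Figure D2:**
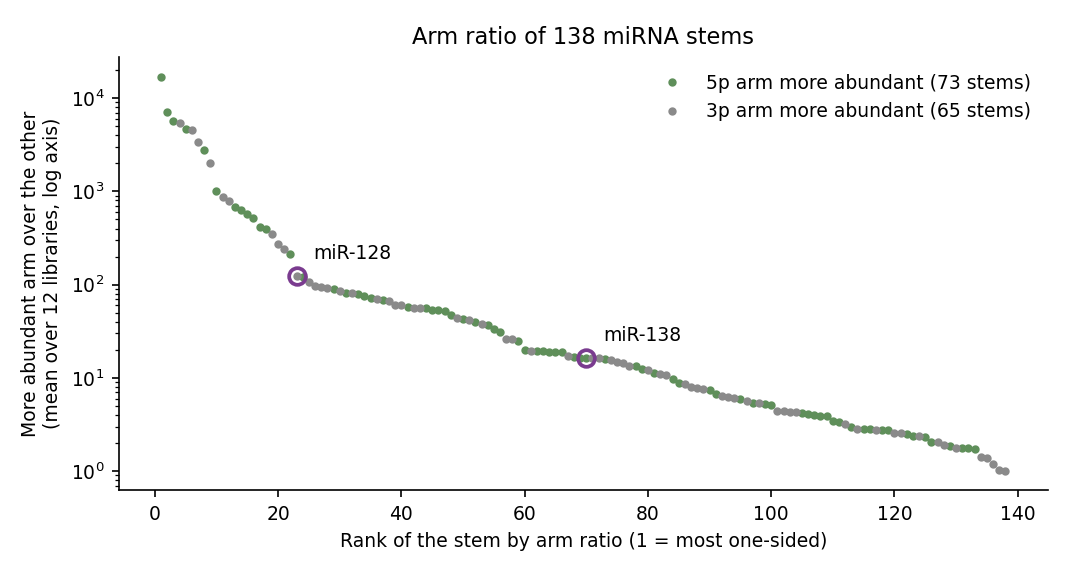
Excess of the more abundant arm over the other (mean over 12 libraries, log axis) for 138 stems, ordered by that excess. Green points have more 5p and grey points more 3p. The ringed stems are miR-128 at rank 23 and miR-138 at rank 70.

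The arm ratios did not differ between the groups beyond the spread of the rats. For rno-miR-138 the guide ratio was 16.9 ± 1.24 (SD, n = 4) in vehicle and 16.4 ± 2.31 (SD, n = 8) in ethanol libraries. The log2 difference was -0.06 ± 0.12 (SE), with a limma adjusted p of 0.963 over 138 stems. For rno-miR-128 it was 122 ± 12.1 (SD, n = 4) in vehicle and 128 ± 20.9 (SD, n = 8) in ethanol libraries. The log2 difference was 0.05 ± 0.14 (SE), with a limma adjusted p of 0.963. The two-sided exact permutation p was 0.655 and 0.679. With 1 rat left out, the miR-138 difference ran from -0.11, without vehicle animal 19, to -0.02, without ethanol animal 23. The miR-128 difference ran from -0.01, without vehicle animal 20, to 0.11, without ethanol animal 8. Neither stem was called, in limma, out of 0 called stems (0.0%) at an adjusted p under 0.05. At an unadjusted p under 0.05, 1 stem (0.725%) passed, and it was neither of these.

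The passenger of the first miR-138 locus made up most of the miR-138 passenger reads. Whether this share equals the share of the loci in making the guide was not tested. rno-miR-138-1-3p made up 75.4% of 114 passenger reads in vehicle animal 9 (exact 95% binomial interval 66.5 to 83.0%) and 76.4% of 106 in animal 10 (67.2 to 84.1%). The share was 68.9% of 190 reads in animal 19 (61.8 to 75.4%) and 81.1% of 185 in animal 20 (74.7 to 86.5%). In ethanol animals the share ran from 66.7% in animal 7 (57 reads, 52.9 to 78.6%) to 80.3% in animal 3 (66 reads, 68.7 to 89.1%), with a median of 74.0%.

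The share of rno-miR-138-1-3p therefore lay above that of rno-miR-138-2-3p in every library, and its interval lay above 50% in each. Over all libraries it was 1043 of 1410 reads, or 74.0% (71.6 to 76.2%). The spread between libraries was 1.33 times that of counting error alone, as chi-square over 11 degrees of freedom. Its mean was 75.5% ± 5.0 (SD, n = 4) in vehicle and 73.3% ± 4.71 (SD, n = 8) in ethanol libraries. The log2 ratio of locus 1 to locus 2 differed by -0.17 ± 0.23 (SE), with a limma adjusted p of 0.655 over 17 pairs of loci and a two-sided exact permutation p of 0.448. After down-sampling to an equal depth the difference was 0.08, without vehicle animal 19 it was -0.33 and without vehicle animal 20 it was -0.02. Of those pairs, 1 (5.88%) had an adjusted p under 0.05 and 2 (11.8%) an unadjusted p under 0.05, and miR-138 was not among them. In 4 of the 17 pairs, miR-128 included, 1 locus had 0 reads in every library, so their ratios rest on the pseudocount. miR-129, with an unadjusted p under 0.05, was such a pair.

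The ratio of the miR-128 loci was fitted with the others, but its value is not given, since only 1 locus was read. rno-miR-128-1-5p had 101 to 308 reads per library and 2189 in all, against 0 for rno-miR-128-2-5p. A count of 0 beside 2189 reads allows rno-miR-128-2-5p a share of up to 0.137% of the miR-128 passenger reads. Per library, rno-miR-128-1-5p was at least 33.7-fold to at least 103-fold higher than the floor of 3 reads. Among 19 pairs of loci in the lists, 6 (31.6%) had 1 locus at 0 in every library, so such a 0 was not particular to miR-128. How the authors' counting divided reads between loci is not given in the sources used here, and its part in the 0 was not tested. The guides cannot be divided between loci, because both loci yield the same mature sequence.

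**Figure D3:**
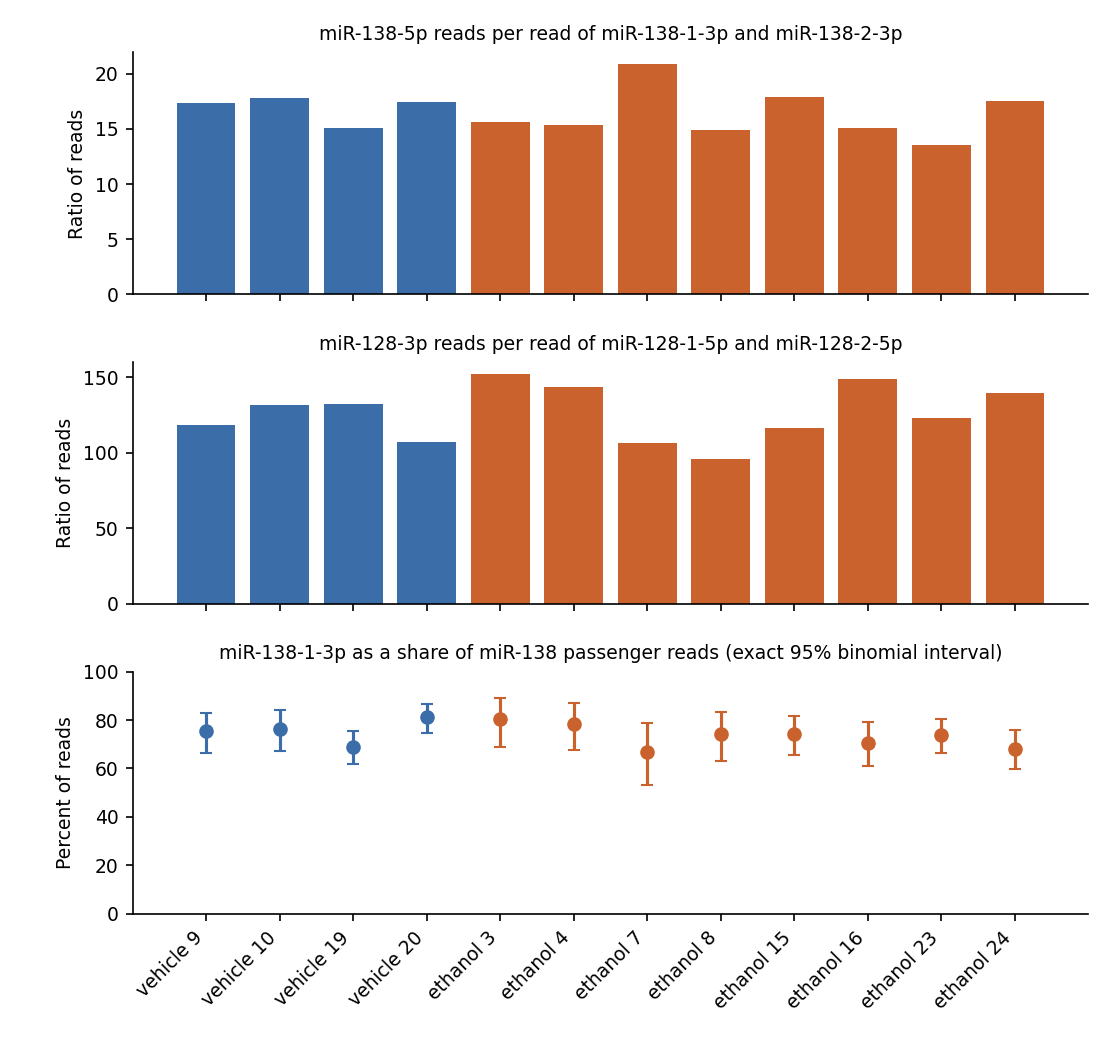
Arm and locus balance in each library, vehicle in blue and ethanol in orange. The upper panels give guide reads per passenger read (13.6 to 20.9 for miR-138 and 95.8 to 152 for miR-128), and the lower panel gives the percent of miR-138 passenger reads that are rno-miR-138-1-3p with exact 95% binomial intervals. Both groups span overlapping ranges in all panels.

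No member differed between ethanol and vehicle beyond the spread of the rats. In the edgeR quasi-likelihood test, 5 of 6 members passed the filter on low counts, and 0 of these had an adjusted p under 0.05, as did 0 of 420 miRNAs (0.0%). DESeq2 called 1 miRNA and limma-trend 0, neither with a member among them. At an unadjusted p under 0.05, edgeR passed 17 of 420 (4.05%) and 0 of the 5. All 5 fitted fold changes were below 0 on the log2 scale, beside 227 of 420 (54.0%) among all miRNAs tested, with a median over all of -0.02. One of the 5, rno-miR-138-2-3p, was at -0.000118 and turned positive in 12 of 22 alternatives. The 5 also include arms of the same hairpins and are not independent. The groups were free of overlap for 0 of the 5 members and for 1 of 420 miRNAs (0.238%).

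rno-miR-138-5p had the lowest fold change of the members. Its mean was 686 ± 85.4 CPM (SD, n = 4) in vehicle and 590 ± 90.9 CPM (SD, n = 8) in ethanol libraries. The log2 fold change was -0.22 ± 0.12 (SE), with a 95% interval from -0.48 to 0.05 and an edgeR adjusted p of 0.971. The two-sided exact permutation p was 0.113. Without vehicle animal 10, its highest library, the value was -0.13.

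rno-miR-128-3p had a mean of 7590 ± 727 CPM (SD, n = 4) in vehicle and 7293 ± 1015 CPM (SD, n = 8) in ethanol libraries. The log2 fold change was -0.06 ± 0.11 (SE), with a 95% interval from -0.29 to 0.17 and an edgeR adjusted p of 0.971. The exact permutation p was 0.574. With 1 rat left out the value ran from -0.11, without ethanol animal 23, to 0.01, without vehicle animal 10.

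Among the passengers, rno-miR-138-1-3p averaged 30.6 ± 3.21 CPM (SD, n = 4) in vehicle and 26.7 ± 5.17 CPM (SD, n = 8) in ethanol libraries. Its log2 fold change was -0.18 ± 0.14 (SE), with an exact permutation p of 0.186. Without ethanol animal 23, its highest library, the value was -0.27, and without vehicle animal 10 or 20 it was -0.12 and -0.13. With counts down-sampled to the smallest library it was -0.07.

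rno-miR-128-1-5p averaged 62.3 ± 5.92 CPM (SD, n = 4) and 57.8 ± 10.0 CPM (SD, n = 8), with a log2 fold change of -0.10 ± 0.13 (SE) and an exact permutation p of 0.360. The value was -0.17 without vehicle animal 19, -0.16 without ethanol animal 23, -0.06 without ethanol animal 4, -0.04 without vehicle animal 20 and -0.03 without ethanol animal 3. rno-miR-138-2-3p averaged 9.93 ± 2.10 CPM (SD, n = 4) and 9.80 ± 2.63 CPM (SD, n = 8). Its log2 fold change was 0.00 to 2 decimals, and its sign changed with the scaling and the filter. The SE of 0.35 was derived from a fold change and a test statistic that were both near 0, so it is not a reliable measure of precision. This last member had the fewest reads of the 5 and the largest spread between rats. Its interval is the widest in the plot of fold changes, but that width rests on the same SE.

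**Figure D4:**
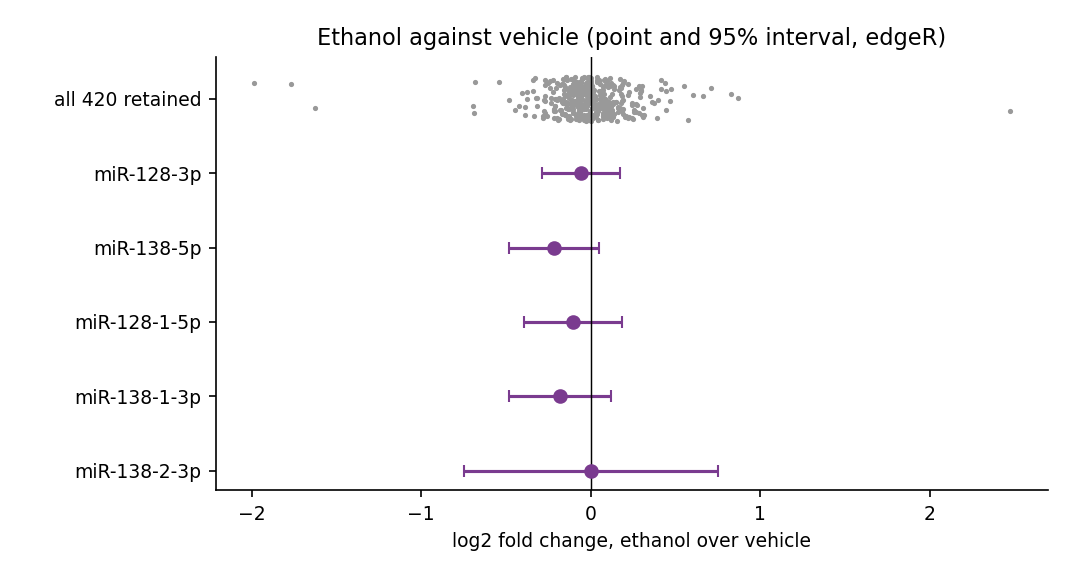
Fitted log2 fold changes, ethanol over vehicle, of the 5 members that passed the filter (purple, with 95% intervals from edgeR) and of all 420 retained miRNAs (grey points, spread vertically only to separate them). Every interval of a member includes 0. That of rno-miR-138-2-3p is drawn widest, but it comes from a fold change and a test statistic both near 0, so its width is not reliable.

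The spread of the members between rats lay on both sides of the median over all retained miRNAs. The pooled SD of log2 CPM within groups was 0.18 for rno-miR-128-3p, 0.21 for rno-miR-138-5p, 0.22 for rno-miR-128-1-5p, 0.23 for rno-miR-138-1-3p and 0.35 for rno-miR-138-2-3p. The median over the 420 retained miRNAs was 0.24, taken over miRNAs of every level and not matched to the levels of the members.

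The guides were also set against each other within a library, which needs no scaling. rno-miR-128-3p had 11.1 ± 0.785 reads (SD, n = 4) for each read of rno-miR-138-5p in vehicle and 12.5 ± 1.54 (SD, n = 8) in ethanol libraries, where the ratio ran from 10.3 to 14.9. The mean log2 ratio was 0.16 higher in ethanol, with a two-sided exact permutation p of 0.113. With 1 rat left out, the difference ran from 0.12 without vehicle animal 20 (exact permutation p = 0.279) to 0.20 without ethanol animal 24 (exact permutation p = 0.0364). The latter was the only p under 0.05 among these 12.

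The guides rose and fell together across the rats only in part. Pearson's r of the log2 CPM of rno-miR-138-5p and rno-miR-128-3p was 0.67 over 12 libraries (permutation p = 0.0170, adjusted 0.0340 over 2 relations). Spearman's rho was 0.58 (permutation p = 0.0529, adjusted 0.106). Without ethanol animals 23 and 8, the farthest from the median of rno-miR-128-3p, r was 0.55 (n = 10, permutation p = 0.0981), so without these animals the relation no longer passed 0.05, at a lower r and with fewer libraries. Within the 8 ethanol libraries r was 0.65 (permutation p = 0.0813, adjusted 0.0813), and the 4 vehicle libraries are too few for a value. The animals that carried the guides high were vehicle 10 and ethanol 23, and those that carried them low were ethanol 8 and 4.

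**Figure D5:**
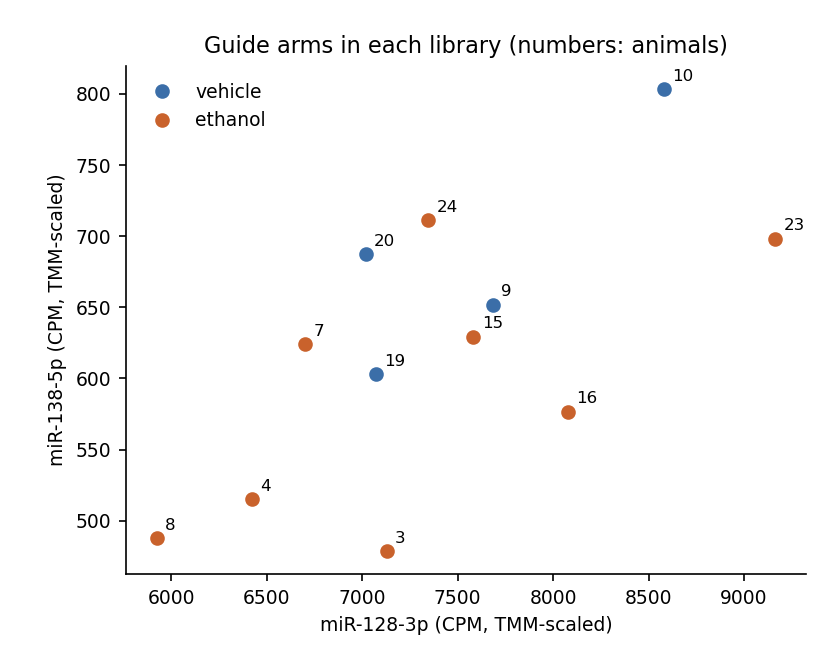
Level of rno-miR-138-5p against rno-miR-128-3p in each library, in TMM-scaled CPM on linear axes that do not start at 0, with the animal number beside each point. Vehicle 10 and ethanol 23 lie at the upper right, and ethanol 8 and 4 at the lower left.

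Other miRNAs followed each guide more closely than the guides followed each other. Among 183 miRNAs with a mean of at least 100 CPM, the 5 most like rno-miR-138-5p across the 12 libraries were miR-218b (r = 0.94), miR-221-3p (0.88), miR-582-3p (0.86), miR-222-3p (0.84) and miR-9a-5p (0.83). rno-miR-128-3p was 27 in that order. The 5 most like rno-miR-128-3p were miR-132-3p (r = 0.88), miR-29a-3p (0.85), miR-664-3p (0.80), miR-29c-3p (0.78) and miR-139-5p (0.73), with rno-miR-138-5p in place 11. These values describe libraries that share their scaling and carry no test.

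The summed level of 7 neuronal marker miRNAs moved with both guides across the rats, and miR-9a-5p made up most of that sum. The 7 markers were all read, miR-9a-5p held between 74.7% and 79.1% of their sum in each library, and they summed to between 29272 and 32993 CPM in vehicle and between 26689 and 31907 CPM in ethanol libraries. The sum was lowest in ethanol animal 4 and highest in vehicle animal 10, and differed by -0.08 on the log2 scale between the groups (exact permutation p = 0.182). Against this sum, rno-miR-138-5p had r = 0.83 (n = 12, permutation p = 0.000830, adjusted 0.0116 over 14 relations) and rho = 0.85 (permutation p = 0.000920, adjusted 0.0129). Without ethanol animals 4 and 8, r was 0.78, and within the ethanol libraries it was 0.78. With miR-9a-5p alone it was 0.83. Over the other 6 markers, a sum added after seeing the data, r was 0.50 (permutation p = 0.0979, adjusted 0.0979 over 4 relations) and rho 0.42 (permutation p = 0.175, adjusted 0.175). Without ethanol animals 8 and 3, this r was 0.85, a value that carries no test. The relation of rno-miR-138-5p without miR-9a-5p was thus not shown over 12 libraries, and its r depended on these 2 animals.

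rno-miR-128-3p had r = 0.76 with the neuronal sum (permutation p = 0.00437, adjusted 0.0306) and rho = 0.73 (permutation p = 0.00936, adjusted 0.0655). Without ethanol animals 4 and 8, r was 0.53. Over the 6 markers other than miR-9a-5p, r was 0.67 (permutation p = 0.0159, adjusted 0.0283) and rho 0.62 (permutation p = 0.0351, adjusted 0.0469). Without ethanol animals 8 and 3, this r was 0.65. Of the lists' markers, miR-9a-5p and miR-132-3p are also among the miRNAs most like the guides. Among 183 miRNAs, miR-9a-5p was in place 5 for rno-miR-138-5p (r = 0.83). miR-132-3p was in place 1 for rno-miR-128-3p (r = 0.88). The marker sums also share the scaling of the guides, so their p values are no independent support for a link with neurons.

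The summed level of the vessel markers moved the other way, and miR-143-3p made up between 98.1% and 98.7% of it. The 3 markers, all read, summed to between 36705 and 46039 CPM in vehicle and between 30812 and 65565 CPM in ethanol libraries, lowest in ethanol animal 23 and highest in ethanol animal 4. rno-miR-128-3p had r = -0.73 with this sum (permutation p = 0.00685, adjusted 0.0320) and rho = -0.69 (permutation p = 0.0166, adjusted 0.0777), and r was -0.74 without ethanol animals 4 and 3. rno-miR-138-5p had r = -0.64 (permutation p = 0.0255, adjusted 0.0894) and rho = -0.57 (permutation p = 0.0549, adjusted 0.149), and r was -0.40 without ethanol animals 4 and 3. Over the markers other than miR-143-3p, which summed to between 551 and 894 CPM, r was -0.70 for rno-miR-128-3p (permutation p = 0.0112, adjusted 0.0283) and -0.65 for rno-miR-138-5p (permutation p = 0.0212, adjusted 0.0283). The corresponding rho was -0.73 (permutation p = 0.00953, adjusted 0.0191) and -0.77 (permutation p = 0.00522, adjusted 0.0191). Without ethanol animals 23 and 3, r over these markers was -0.62 for rno-miR-128-3p and -0.53 for rno-miR-138-5p. Sums without the most abundant marker were formed only for the neuronal and vessel lists. These were the lists that already had an adjusted p under 0.05 over 14 relations. The p values adjusted over 4 relations are therefore no independent test.

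Over all 12 libraries, the other lists had no adjusted p under 0.05 with either guide. Each of them also had a negative r with both guides, so a negative sign was not particular to the vessel markers. The 4 choroid plexus markers, all read, varied most among the abundant lists, from 29002 to 50295 CPM in vehicle and from 16526 to 70924 CPM in ethanol libraries. Against this sum r was -0.13 for rno-miR-138-5p and -0.43 for rno-miR-128-3p (permutation p = 0.692 and 0.166), with rho of -0.31 and -0.50 (permutation p = 0.321 and 0.0984). Without ethanol animals 3 and 15 these r were -0.83 and -0.74. The 3 oligodendrocyte markers summed to between 9332 and 17658 CPM in vehicle and between 9827 and 19011 CPM in ethanol libraries. Their r was -0.24 for rno-miR-138-5p and -0.03 for rno-miR-128-3p, and within the ethanol libraries 0.19 and 0.17. The 3 blood markers that could be matched by name, of 4 listed, summed to 56.6 to 298 CPM over all libraries. The 3 microglia and macrophage markers summed to 251 to 433 CPM and the 3 muscle markers to 38.2 to 706 CPM. With rno-miR-138-5p and rno-miR-128-3p, r was -0.54 and -0.49 for microglia and macrophage (permutation p = 0.0690 and 0.106). In the same order it was -0.46 and -0.35 for blood and -0.17 and -0.14 for muscle. No list had a marker at 0 in every library. In this bulk tissue, fewer cells of a type and less RNA per cell cannot be told apart, and the part of cell makeup in the members' levels was not tested.

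miRNAs with related seeds are shown because the seed sets which sites a miRNA can pair with. They were those that hold bases 2 to 7 of a guide within their bases 1 to 9, with those bases in capitals.
rno-miR-27a-3p: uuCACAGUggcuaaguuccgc
rno-miR-27b-3p: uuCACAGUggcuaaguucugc
rno-miR-133a-5p: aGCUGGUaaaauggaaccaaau
In miR-27a-3p and miR-27b-3p the 6 bases searched for start at base 3. The g that follows them matches too. Both thus hold the whole seed of rno-miR-128-3p, CACAGUG, starting at base 3 instead of base 2. miR-27b-3p, at 21539 ± 1020 CPM (SD, n = 4) in vehicle and 22173 ± 1850 CPM (SD, n = 8) in ethanol libraries, was above rno-miR-128-3p in 12 of 12 libraries. miR-27a-3p, at 8862 ± 435 CPM in vehicle and 8879 ± 691 CPM in ethanol libraries, was above it in 11 of 12. Their log2 fold changes were 0.04 ± 0.07 (SE) and 0.00 ± 0.07 (SE).

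The other miRNAs with these bases were scarce. miR-672-3p, with the bases of rno-miR-128-3p, had 9 to 55 reads, and miR-216a-3p had 0 to 3. For rno-miR-138-5p, miR-133a-5p, a muscle miRNA arm, had 0 to 9 reads, and miR-133b-5p and miR-133c had 0 in all 12 libraries. The search covered bases 1 to 9 of the 688 names with a RefSeq sequence, and the other names were not searched.

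Other miRNAs with known roles at the synapse were listed for comparison. Of 20 listed, all named in the files, 19 passed the filter on low counts and miR-381-3p had 0 reads in every library. Among the 19, 12 had a fold change below 0 and 7 above, beside 54.0% below 0 among all 420 miRNAs. The median log2 fold change was -0.04, beside -0.02 over all. By edgeR, 0 had an adjusted p under 0.05 and 1 an unadjusted p under 0.05, beside 4.05% of all miRNAs. This was miR-134-5p, a dendritic miRNA known to limit spine size through Limk1, at 147 ± 9.14 CPM (SD, n = 4) in vehicle and 181 ± 26.0 CPM (SD, n = 8) in ethanol libraries. Its log2 fold change was 0.30 ± 0.11 (SE), with an edgeR adjusted p of 0.971 and an unadjusted exact permutation p of 0.0162.

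The most abundant miRNAs of that list were miR-26a-5p, with a log2 fold change of -0.06 ± 0.06 (SE), miR-191a-5p, with -0.03 ± 0.06, and miR-9a-5p, with -0.08 ± 0.07. The fold changes of greatest size were those of miR-34a-5p, at 0.35 ± 0.27 (SE), miR-134-5p and miR-188-5p, at -0.22 ± 0.18 (SE). The value of rno-miR-138-5p, at -0.22, was about as low as the lowest of these.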

How the data were processed

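Small RNA libraries of 12 rats were analysed, 4 vehicle and 8 ethanol. The values, as deposited by the authors, are estimated counts for 753 mature miRNAs per rat, partly fractional and not scaled for depth. The submitters' processing notes name Partek, cutadapt and rn5, without versions or roles. The counting step and the miRNA annotation are not given in the sources used here. Fractional values occurred for rno-miR-128-3p in 12 libraries, rno-miR-138-5p in 6 and rno-miR-128-1-5p in 1, and were rounded for count tests. Libraries were multiplexed in sets that the labels do not give per rat, so batches could not be compared. Each library is a separate animal.

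miRNAs with under 10 reads in 10 or more libraries were left out, which kept 420. Ethanol was compared with vehicle by edgeR 4.0.16 (R 4.3.3; quasi-likelihood test, TMM factors, no covariates, Benjamini-Hochberg adjustment), where the authors used t-tests. Log2 CPM used a prior count of 2. Arm and locus ratios were tested by limma 3.58.1 on log2 ratios of reads with a pseudocount of 0.5. Group means were set against each other by exact permutation tests (two-sided) over all splits into 4 and 8. Members next to each other in level were compared by exact sign flips, and correlations were tested by 100000 permutations (SciPy 1.17.1). Binomial intervals are exact (Clopper-Pearson). The fits were tested on simulated data. Alternatives were other scalings and filters, DESeq2 1.42.0, limma-trend, unrounded and down-sampled counts, library total as a covariate, other pseudocounts and each rat left out.

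The members and lists were chosen with earlier results of these data known. Beyond the members, miRNAs were named by rule: neighbours in level or arm ratio, the 5 most alike to each guide, carriers of a guide's bases 2 to 7, and, in a list of 20 synaptic miRNAs, those with an unadjusted p under 0.05, the 3 most abundant and the 3 with the greatest change. The scalings of the correlation between the guides were added after seeing the data, as were the correlations with marker sums. Sums without the most abundant marker were formed for the neuronal and vessel lists only.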

Additional observations from a re-analysis of the deposited data

Results flagged for a closer look

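Of 18 sets of 4 or 8 libraries examined for a library far from the rest of its group by Dixon's criterion, 2 stood out, and chance flags about 1 in 20. Both concern vehicle animal 19. rno-miR-128-1-5p was at 5.76 log2 CPM there, against 6.04 to 6.05 in the other 3 vehicle animals, a distance of 0.964 of the range of these 4 animals. The log2 ratio of the miR-138 guide to its passengers was 3.91 there, against 4.11 to 4.15 in the others, a distance of 0.830 of the range. In both cases the ethanol animals reached lower values than animal 19.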

How the results depend on the processing

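Members with an adjusted p under 0.05 numbered 0 under all 22 alternatives. Over all miRNAs that count was 1 with DESeq2 and 0 to 3 with 1 rat left out, with 3 reached without ethanol animal 16. Counts at an unadjusted p under 0.05 moved from 17 to 11 with the library total as a covariate, and to between 5 and 24 with 1 rat left out (9 without vehicle 9, 5 without vehicle 20, 10 without ethanol 4, 11 without ethanol 8). The log2 fold change of rno-miR-138-2-3p, near 0, turned positive with DESeq2-style size factors (0.00746), no filter (0.00213), filterByExpr (0.0179), DESeq2 (0.00748), unrounded counts (0.00256), the library total as a covariate (0.12) and some rats left out (-0.10 to 0.14). With 1 rat left out, rno-miR-128-3p ranged from -0.11 to 0.00683, the miR-128 arm ratio from -0.00769 to 0.11, the miR-138 arm ratio from -0.11 to -0.02, rno-miR-128-1-5p from -0.17 to -0.03, rno-miR-138-1-3p from -0.27 to -0.12, the miR-138 locus balance from -0.33 to -0.02, and the log2 ratio of the guides from 0.12 to 0.20. Down-sampled counts turned the locus balance to 0.0793. The cause was not tested. rno-miR-138-5p kept its direction under 22 of 22 alternatives, from -0.27 to -0.13. Its unadjusted edgeR p was 0.0484 without ethanol 24, and that of rno-miR-138-1-3p was 0.0236 without ethanol 23. In the 4 vehicle libraries alone, the differences between neighbours in level were 3.47, 3.45, 1.01 and 1.58, each with an exact p of 0.125, the smallest that 4 libraries can give. The correlation of the guides was 0.66 with DESeq2-style size factors and 0.73 with library totals alone. The miR-128 locus balance was fitted with the other pairs, but no value or alternative is given for it, since 1 locus had 0 reads and the ratio rests on the pseudocount. No paired analysis was possible because the groups compared share no replicate numbers. Depth limits rno-miR-138-2-3p and the locus shares, which rest on few reads.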
